A study of Mus musculus with 10 samples.

Results

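Adult mouse testis cells enriched for spermatogonial stem cells were compared before culture and after 3 weeks of culture. The comparison took in 4 of the 10 arrays of the study, chosen by their labels: 2 arrays of sorted cells at 0 weeks and 2 arrays of cells at 3 weeks. Both groups came from the testes of adult DBA/2 mice, from which cells had been selected with magnetic beads for CD9, which stem spermatogonia carry on their surface, as do other testis cells. The cultured cells were kept in a medium based on Iscove's modified MEM with FGF2 at 10 ng/ml, GDNF at 15 ng/ml and 1% fetal bovine serum. The labels name no feeder layer, and they do not say whether the 2 arrays of a group stand for separate animals or cultures. The p-values therefore measure the spread between these arrays alone, which may be technical. The other arrays of the study were 2 each of 1 week cultures, 2 week cultures and established DBA/2 GS cells (germline stem cells, long-term cultures of spermatogonial stem cells), and they served to estimate the spread and to place the 3 week levels.

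Spermatogonial stem cells lie on the wall of the seminiferous tubule and either renew themselves or give rise to differentiating spermatogonia, which enter meiosis as spermatocytes and then become spermatids and sperm. GDNF, made by Sertoli and peritubular cells in the testis, acts through the receptor pair GFRA1 and RET, and together with FGF2 it keeps stem cells dividing in culture. Genes of meiosis and sperm formation are switched on in order along this path, so that their transcripts mark the stage a germ cell has reached, while Leydig, peritubular, Sertoli and other somatic cells carry transcripts of their own.

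Signals of 20174 genes were compared on a linear scale from 30.14 to 18069.6, with an array median of 120.1 to 128.7 and a lower quartile of 72.0 to 77.4 on these 4 arrays. A gene passed when limma's adjusted p was under 0.05. The files give no detection call, so a fall to a signal near or below the lower quartile, or a rise from one, is a lower bound. Changes are log2(3 weeks) minus log2(0 weeks) with the SE of the fit and n = 2 arrays per group, and 1 unit is a doubling. Replicates correlated across genes at r = 0.996 for the sorted cells and 0.992 for the 3 week cultures, against 0.781 to 0.786 between the groups (genes are not independent replicates). Of all genes, 10882 passed (53.9%), 6065 higher (30.1%) and 4817 lower (23.9%) at 3 weeks, and 55.7% of the genes that passed were thus higher, a share that was 43.9% with cyclic loess scaling. That scaling moved the median change of all genes from 0.10 to -0.002. Most changes were small, with 8076 of the 10882 under 2-fold. By at least 2-fold 693 genes were higher (3.44%) and 2113 lower (10.5%), and the balance tilted further with size: 41 rose and 915 fell by at least 4-fold, 1 rose and 426 fell by at least 8-fold, and 169 fell by at least 16-fold with no gene rising that much. Counts of list members below are to be read against these shares and against the median change of 0.10.

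**Figure D1:**
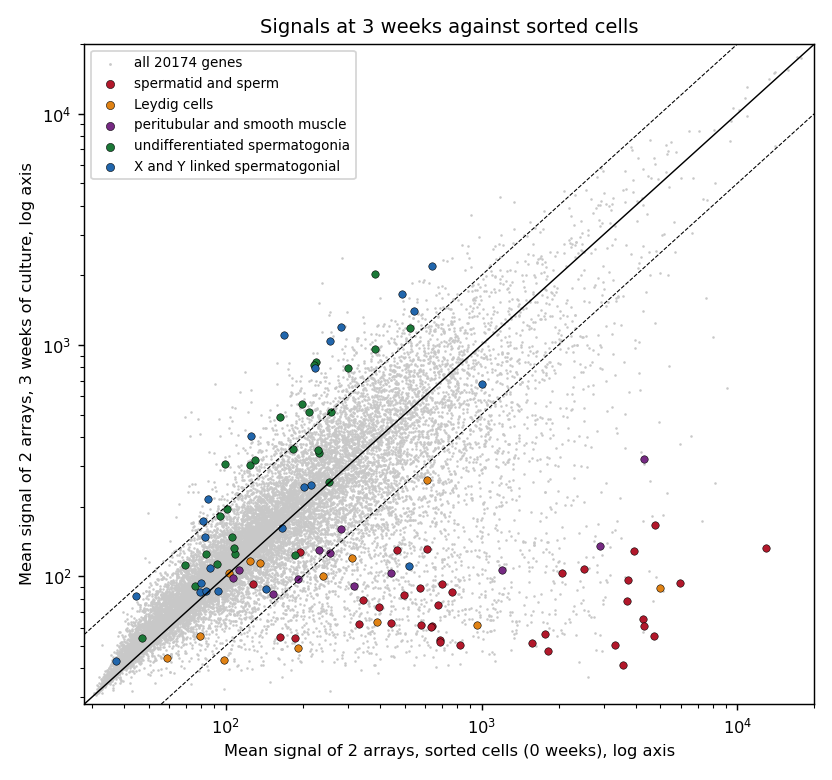
Mean signal of each of 20174 genes in sorted cells (0 weeks, x axis) and after 3 weeks of culture (y axis), both log axes, 2 arrays per group; the solid line marks equal signals and the dashed lines a 2-fold difference. Spermatid members and most Leydig cell members lie below the solid line and most undifferentiated spermatogonia members above the solid line, and the largest falls reach further from it than the largest rises.

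The sorted cells were checked against markers of the cells a testis holds. Signals were summed over each marker list. The Leydig sum was 8264 and 8342 on the sorted arrays and 1219 on both 3 week arrays, the peritubular sum 9758 and 11233 against 1453 and 1660, and the Sertoli sum 6414 and 6835 against 3878 and 3808. The fibroblast sum was 12706 and 14116 against 7463 and 9805, and 100782 on average at 1 week. Of its members 17 of 28 were higher on the second 3 week array than on the first. That count was 13 of 28 for undifferentiated spermatogonia, 15 of 37 for spermatids and 8 of 23 for Sertoli cells. It was 5 of 12 for peritubular, 5 of 13 for Leydig, 5 of 20 for macrophage and 3 of 12 for endothelial members. The share over all genes is not given here. The spermatid sum went from 74012 and 77105 to 3018 and 2907, and that of undifferentiated spermatogonia from 5180 and 5210 to 12225 and 12419. The sorted cells, labelled as spermatogonial stem cells, were thus also bright for genes of spermatids and of fibroblasts, peritubular, Leydig and Sertoli cells. Each of these sums was above that of undifferentiated spermatogonia on both sorted arrays, over lists of unequal size. These sums differ between the groups beside every result given here, and their part in those results was not tested.

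Genes of undifferentiated spermatogonia were mostly higher after 3 weeks. Of 28 measured members 23 rose, 12 of them by at least 2-fold, 1 fell and 4 did not pass, with a median change of 0.95. Zbtb16, which encodes the transcription factor PLZF that maintains stem spermatogonia, had signals of 381 and 387 in the sorted cells and 1999.5 and 2045 at 3 weeks, a change of 2.40 ± 0.06 (adjusted p = 7.1e-10). Foxo1, a transcription factor needed for stem cell maintenance, went from 216 and 228 to 818 and 817 (1.88 ± 0.06). Neither gene's groups overlapped, and both sat close between replicates. Sall4, a zinc finger factor of early germ cells, rose from 305 and 298 to 811 and 779.9 (1.40 ± 0.08), and Nanos3, an RNA-binding regulator, from 172 and 154 to 544 and 429 (1.57 ± 0.15). Several surface proteins used to sort stem cells rose as well: Itga6 (integrin alpha 6) by 1.61 ± 0.15, Epcam by 1.49 ± 0.12 and Cd9, the antigen of the sort itself, from 169 and 197 to 368 and 340.4 (0.96 ± 0.09). Tspan8, another surface protein of the list, read 0.19 ± 0.10 without passing, with overlapping groups and signals under the lower quartile. The rise was not uniform. Id4, a marker of stem cell activity, read 234 and 274 in the sorted cells and 224 and 286 at 3 weeks (0.00 ± 0.13, adjusted p = 1), with overlapping groups, and Pax7, which marks a rare subset in mouse, read 0.20 ± 0.14 without passing. Nanos2, an RNA-binding protein that holds cells undifferentiated, passed at 0.30 ± 0.09 (adjusted p = 0.018), but its adjusted p was 0.061 to 0.15 in fits that left out the second sorted array or either 3 week array. The member that fell was Gfra2, the neurturin receptor (-0.59 ± 0.07).

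Receptors and targets of GDNF and FGF signalling moved in both directions. Of 24 members 11 rose, 6 fell and 7 did not pass (median 0.18, 5 higher and 1 lower by at least 2-fold). Ret, the signalling receptor for GDNF, had 218 and 234 in the sorted cells and 887 and 802 at 3 weeks (1.90 ± 0.07), and its partner Gfra1 had 225 and 198 and 487 and 541 (1.28 ± 0.08). Both receptors were thus higher on every 3 week array than on any sorted array. The transcription factor genes Etv5 and Bcl6b, which GDNF induces and self-renewal needs, rose by 0.99 ± 0.07 and 1.28 ± 0.11. Ccnd2, a cyclin that GDNF and FGF2 induce in these cells, went from 349.7 and 339.6 to 1256 and 1381 (1.93 ± 0.07), a change that was 0.56 when its transcript clusters were averaged in place of taking the brightest. Mycn rose by 1.75 ± 0.09, and the feedback inhibitors of the MAP kinase pathway Dusp6, Spred1 and Spred2 by 1.44 ± 0.09, 1.29 ± 0.08 and 1.03 ± 0.08. Of the other such inhibitors in the list, Spry4, Dusp5 and Spry2 rose by 0.90 ± 0.09, 0.78 ± 0.10 and 0.46 ± 0.08. Dusp4 (-0.42 ± 0.13) and Spry1 (-0.38 ± 0.08) fell. The members that fell included Fos, an immediate early factor, from 474 and 619.5 to 174 and 143 (-1.78 ± 0.15). Of the FGF receptors, Fgfr1 rose from 301 and 350 to 494 and 495 (0.61 ± 0.08), without overlap. Fgfr2 and Fgfr3 did not pass (-0.11 ± 0.08 and 0.13 ± 0.13), and Fgfr4 read -0.01 ± 0.12 with overlapping groups.

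Several of these genes were lower at 3 weeks than at 2 weeks and in GS cells. Mycn ran the other way, with means of 242.5 at 2 weeks, 368.6 at 3 weeks and 272.2 in GS cells. Bcl6b had a mean signal of 1271 at 2 weeks, 304 at 3 weeks and 1787 in GS cells. Its change was -2.08 ± 0.11 from 2 to 3 weeks (adjusted p = 2.6e-05) and 2.57 ± 0.11 from 3 weeks to GS cells (adjusted p = 4.2e-07), and those of Gfra1, Ret and Etv5 ran the same way and passed. Dusp6, Spred1 and Spred2 had means of 429.7, 311 and 368 at 3 weeks and 2119, 943 and 1120.1 in GS cells. For scale, 24.0% of all genes passed between 2 and 3 weeks (7.62% higher and 16.4% lower at 3 weeks) and 47.1% between 3 weeks and GS cells (29.9% higher and 17.2% lower in GS cells).

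Genes of differentiating spermatogonia split. Of 17 members 9 rose, 4 fell and 4 did not pass (median 0.24). Dmrt1, a factor of spermatogonia that holds back meiosis, rose from 339.6 and 363 to 1008 and 933 (1.47 ± 0.09). Uchl1, a ubiquitin hydrolase abundant in spermatogonia, rose from 352 and 449.5 to 1569 and 1627 (2.01 ± 0.10), and Sohlh1, a differentiation factor, by 1.22 ± 0.11. No sorted array reached a 3 week array in these genes. Kit, the receptor that marks differentiating spermatogonia, measured 266 and 298 in the sorted cells and 237 and 244 at 3 weeks. Its change of -0.23 ± 0.08 was barely past the threshold (adjusted p = 0.047) and missed it in 7 of 13 alternative settings. Stra8, a retinoic acid response gene, read 77.1 and 72.3 and 85.6 and 91.2 (0.24 ± 0.07), around the lower quartile, and missed the threshold in 4 of them. The other members that fell were Meioc (-2.54 ± 0.18) and Dmrtb1 (-1.06 ± 0.09), which act around meiotic entry, and Ccnd3 (-0.20 ± 0.07).

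Genes of the meiotic chromosome axis and recombination fell in part. Of 30 members 13 fell, 7 of them by at least 2-fold, 5 rose and 12 did not pass (median -0.21). Syce1, of the synaptonemal complex that joins paired chromosomes, fell from 1141 and 1204 to 225 and 269 (-2.25 ± 0.09), Sycp2 from 883 and 928 to 202 and 232 (-2.06 ± 0.17), and Spo11, which makes the DNA breaks of recombination, fell as well (-2.0 ± 0.07). Sycp1, another component of the complex, stayed high at 715 and 769 in the sorted cells and 644 and 923 at 3 weeks (0.06 ± 0.23, adjusted p = 0.85). Its groups overlapped, and Syce2 read -0.21 ± 0.08 without passing. The members that rose were Tex11 (1.08 ± 0.15), Rad21l (0.99 ± 0.13), Mei4 (0.94 ± 0.07), Tex15 (0.66 ± 0.10) and Terb2 (0.43 ± 0.12). Sycp3 lies only on a cluster shared by several gene symbols and was not analysed here.

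Later germ cell genes were the largest falls of the comparison. All 37 measured spermatid and sperm members fell, 35 of them by at least 2-fold, with a median of -3.70, and of 20 members of the pachytene and meiotic division list 16 fell, all by at least 2-fold, 2 rose and 2 did not pass (median -3.58). Prm1, the protamine that packs sperm DNA, had 13034 and 12946 in the sorted cells, among the brightest signals there, and 141 and 123 at 3 weeks (-6.63 ± 0.17, adjusted p = 6.3e-10). Crisp2, a secreted protein of the acrosome and tail, had 4758 and 4660.2 and 56.4 and 53.6 (-6.42 ± 0.06). Smcp, a protein of the sperm mitochondrial sheath, had 3704 and 4811 and 68.5 and 61.6 (-6.02 ± 0.13). The 3 week signals of Crisp2 and Smcp lie below the lower quartile, so these falls are lower bounds. Oaz3, the antizyme of spermatids, Gk2, a glycerol kinase, and Fabp9, a lipid-binding protein of the sperm head, fell as well (-6.15 ± 0.11, -6.04 ± 0.07 and -5.99 ± 0.07). Among meiotic genes Meig1 fell (-5.09 ± 0.08), the germ cell RNA-binding gene Ybx2 (-4.67 ± 0.10) and the chaperone gene Clgn (-4.42 ± 0.08). Taf7l (2.02 ± 0.13) and Cpeb1 (0.65 ± 0.07) rose, and Cks2 measured 1033 and 1068 and 1028 and 1086 (0.01 ± 0.08). Taf7l is X-linked and already on in spermatogonia. Testis histones fell in 10 of 13 members, with 1 rise and 2 that did not pass (median -0.97). The histone gene H2bc1 went from 5275 and 5505 to 735 and 882 (-2.74 ± 0.12), and the linker histone genes H1f6, H1f7 and Hils1 fell (-2.29 ± 0.11, -2.16 ± 0.11 and -2.22 ± 0.11). The member that rose, H1f0, changed by 0.25 ± 0.09 (adjusted p = 0.042) and missed the threshold in 7 of 13 alternative settings. In these bulk samples, fewer cells of a type and less RNA per cell cannot be told apart.

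**Figure D2:**
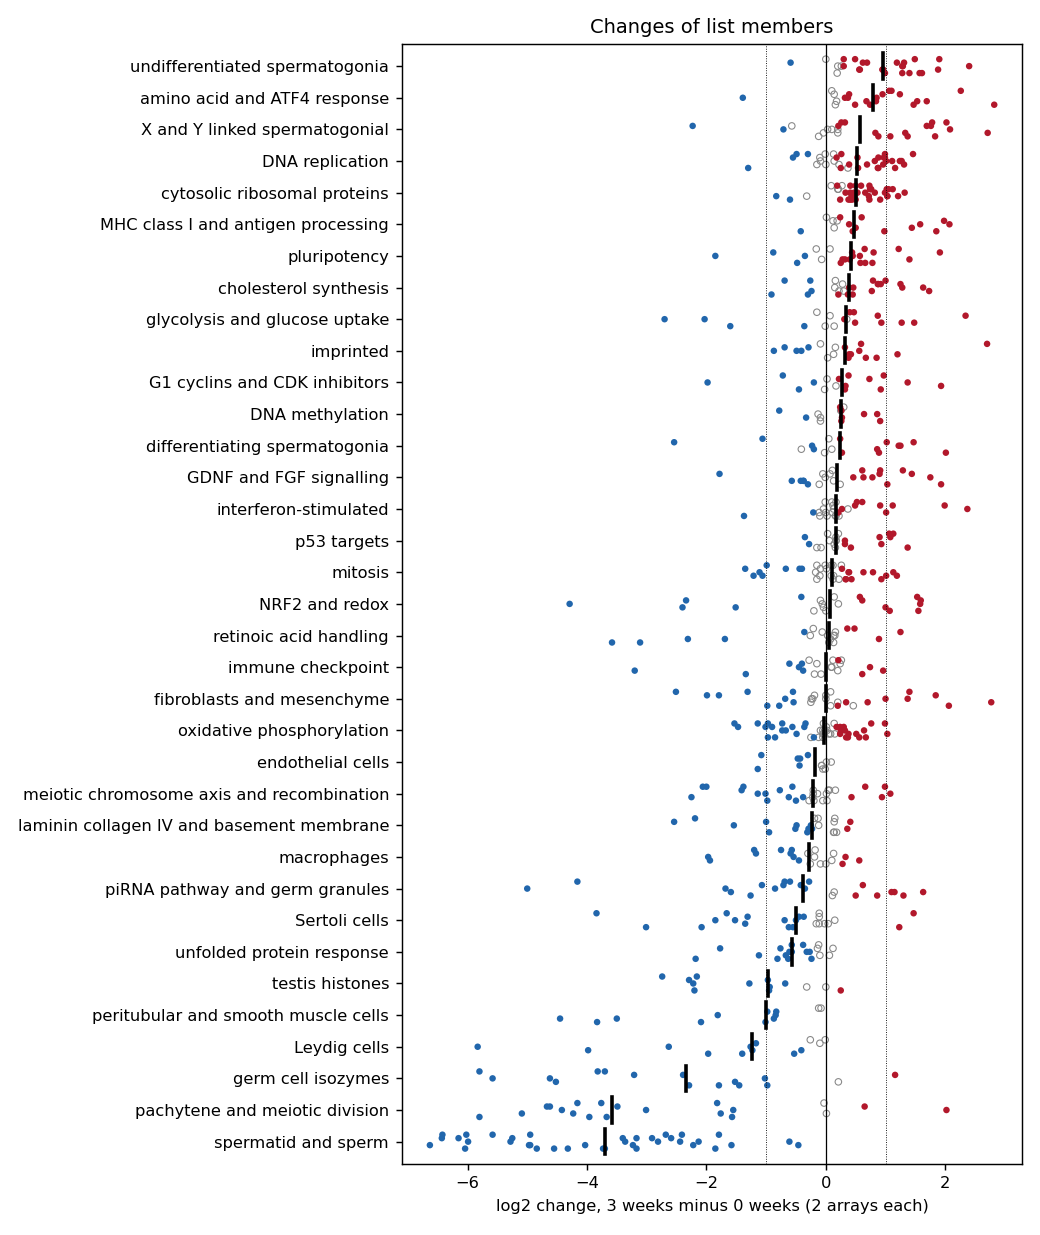
Log2 change from 0 to 3 weeks of every measured member of 35 gene lists, ordered by median (black bar): red dots passed and were higher, blue dots passed and were lower, open circles did not pass, and dotted lines mark 2-fold. The spermatid and sperm list reaches -6.63 and the undifferentiated spermatogonia list has the highest median, 0.95.

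Enzymes with a version of their own in spermatocytes and sperm fell, while most of their relatives of other cells did not. Of 16 germ cell isozymes 14 fell, 13 by at least 2-fold, 1 rose and 1 did not pass (median -2.34). Along glycolysis, the pathway that powers sperm movement, Pgk2 (phosphoglycerate kinase of meiotic cells) fell from 1580.2 and 1536 to 65.5 and 60.9 (-4.62 ± 0.06). The cluster named for its relative Pgk1 read 162 and 204 and 204 and 264 (0.35 ± 0.14, adjusted p = 0.054), with overlapping groups. Gapdhs, the sperm glyceraldehyde phosphate dehydrogenase, fell (-5.58 ± 0.14, and -2.82 with its clusters averaged) and Gapdh rose by 0.47 ± 0.06, a rise that became -0.01 with cyclic loess scaling. Pgam2 fell (-4.52 ± 0.10) and Pgam1 rose by 1.27 ± 0.09. The glucose transporters Slc2a3 and Slc2a1 changed by -3.82 ± 0.07 and 1.48 ± 0.09, and the hexokinases Hk1, which has testis forms, and Hk2 by -3.21 ± 0.07 and 0.49 ± 0.08. In lactate dehydrogenase both forms fell. Ldhc, the testis form, fell from 4979.6 and 4829 to 89.6 and 86.8 (-5.80 ± 0.09), and Ldha, the form of most tissues, fell too, from 4149 and 4189 to 608 and 672 (-2.70 ± 0.08). The germ cell aldolase genes Aldoart1 and Aldoart2 fell (-1.02 ± 0.13 and -2.39 ± 0.18), as did Aldoa, the form of most tissues (-0.36 ± 0.07). Aldoc, a further aldolase gene, rose from 222 and 212 to 434 and 396 (0.93 ± 0.09). Outside glycolysis, the cytochrome oxidase subunits Cox6b2 and Cox6b1 changed by -3.70 ± 0.12 and 1.03 ± 0.12, and the ribosomal protein Rpl10l, which replaces its X-linked relative in meiosis, and Rpl10 by -0.83 ± 0.13 and 0.44 ± 0.08. The isozyme that rose was Slc25a31, a germ cell ATP carrier (1.16 ± 0.14). The difference within each pair was not tested, and the pairs and their somatic relatives were picked with their values known. The clusters named Pgk1, Gapdh, Pgam1 and Rpl10 may measure processed copies in place of these genes, which was not checked.

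**Figure D3:**
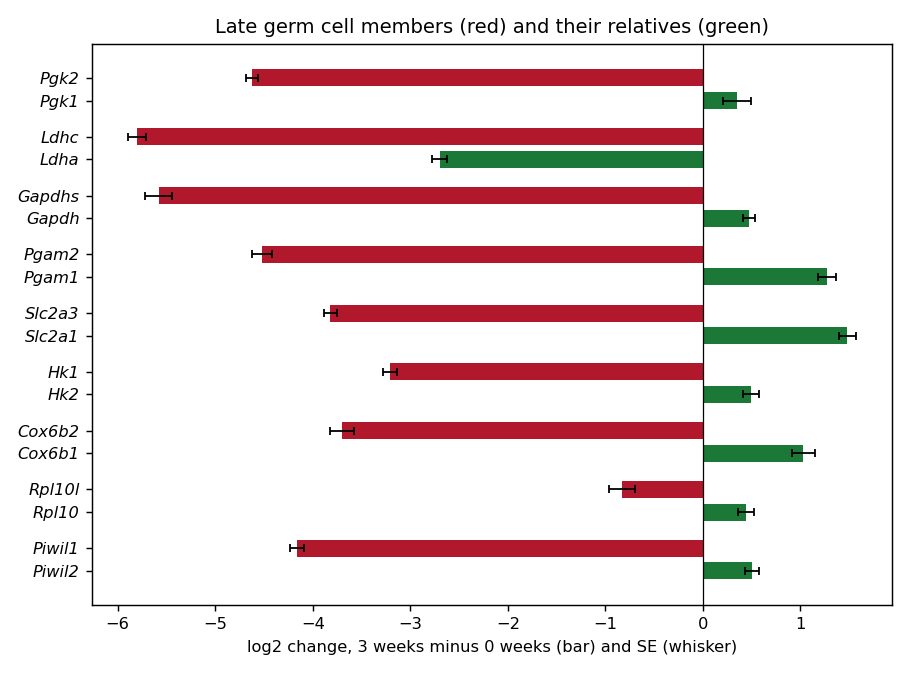
Log2 change from 0 to 3 weeks (bars, whiskers are the SE of the fit, n = 2 arrays per group) of 9 members used in spermatocytes or sperm (red) and of a relative of each (green). All 9 red bars point down, from -5.80 for Ldhc to -0.83 for Rpl10l, and of the green bars only that of Ldha does. The aldolase genes are not plotted. The clusters named Pgk1, Gapdh, Pgam1 and Rpl10 may measure processed copies.

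The piRNA pathway, which silences transposons through small RNAs bound to PIWI proteins, moved in both directions. Of 22 members 13 fell, 7 rose and 2 did not pass (median -0.38, 6 lower by at least 2-fold). Piwil1, the PIWI protein of spermatocytes and spermatids, fell from 1968 and 1842 to 105 and 108 (-4.16 ± 0.07), and Tdrd6, of the chromatoid body of spermatids, from 2566 and 2344 to 77.3 and 76.4 (-5.00 ± 0.12). Piwil2, the PIWI protein present from spermatogonia on, read 752 and 740.3 in the sorted cells and 999.7 and 1108 at 3 weeks and rose (0.50 ± 0.07). Tex19.1, which restrains transposons in germ cells, rose by 1.63 ± 0.13, Fkbp6 by 1.30 ± 0.07 and Dazl, an RNA-binding regulator of germ cells, from 1160.4 and 1266 to 2548 and 2854 (1.15 ± 0.10). Ddx4, the VASA helicase found across the germ line, fell from 2509 and 2532 to 1496 and 1587 (-0.71 ± 0.11) and stayed bright.

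Sex-linked genes of spermatogonia rose. Of 24 members of the list of X and Y genes active in spermatogonia 15 rose, 10 by at least 2-fold, 2 fell and 7 did not pass (median 0.58). Mageb4 had 151 and 187 in the sorted cells and 1076 and 1122 at 3 weeks (2.71 ± 0.11), one of the largest rises. Nxf2, an RNA export factor gene, had 273 and 292 and 1154 and 1234 (2.08 ± 0.10), Usp26 rose by 1.83 ± 0.08 and the Y-linked Uba1y by 1.78 ± 0.09. None of these genes overlapped between the groups. The members that fell were Nxf3 (-2.23 ± 0.15) and Esx1 (-0.71 ± 0.11), and Sly, a Y gene of spermatids present in many copies, read -0.57 ± 0.31 without passing. Many of these genes have near-identical copies on the sex chromosomes, which probes may not separate. The RefSeq promoter table (GRCm38.p6) placed 14937 of the measured genes on 1 chromosome. On the X chromosome, which is silenced in meiotic spermatocytes, 588 genes were measured, of which 7.65% passed and were at least 2-fold higher and 5.27% at least 2-fold lower. Over 14339 autosomal genes the shares were 3.28% and 11.5%. The X was the only chromosome of the 19 plotted on which more genes were higher than lower by at least 2-fold, although its median change of 0.09 was close to the autosomal 0.10. The Y, with 10 genes measured, is not plotted, and 2 of them were higher and 1 lower by at least 2-fold. These shares were not tested, and chromosome 18 was not analysed here.

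**Figure D4:**
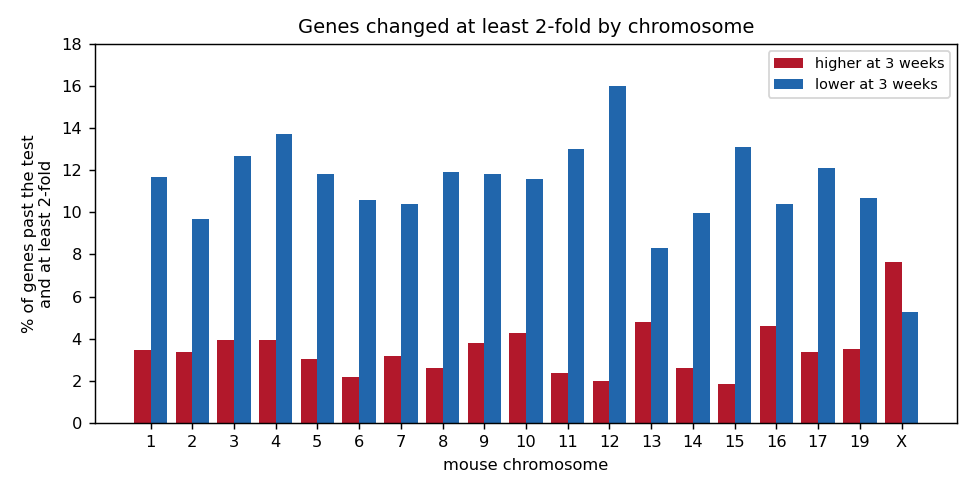
Share of measured genes on each chromosome that passed and were at least 2-fold higher (red) or lower (blue) at 3 weeks than at 0 weeks; the bars start at 0. On the X the red bar (7.65%) is taller than the blue (5.27%), and on every autosome shown the blue bar is the taller.

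The sorted cells carried transcripts of testis somatic cells. Many of these were lower after 3 weeks, with the lowest medians in the Leydig and peritubular lists. Of 13 Leydig cell members 10 fell, 8 by at least 2-fold, and 3 did not pass (median -1.23). The steroid enzyme gene Cyp17a1 had 4973 and 5011 in the sorted cells and 102 and 75.6 at 3 weeks (-5.83 ± 0.12), and Cyp11a1, which starts steroid synthesis, 964 and 964 and 62.1 and 60.4 (-3.98 ± 0.10). Of 12 peritubular and smooth muscle members 10 fell and 2 did not pass (median -1.0). Acta2, smooth muscle actin, went from 4009 and 4604 to 213 and 429 (-3.83 ± 0.25) and Myl9, a myosin light chain, from 2559 and 3236 to 105 and 164 (-4.45 ± 0.19). Sertoli cell members fell in 14 of 23 cases, with 2 rises and 7 that did not pass (median -0.50), led by Clu (-3.84 ± 0.15) and Inha (-3.01 ± 0.09). Sox9, Amh and Fshr, which define Sertoli cells, did not pass (-0.11 ± 0.08, -0.11 ± 0.12 and 0.04 ± 0.07), with Amh and Fshr at 63.9 and 66.0 and 81.7 and 76.5 in the sorted cells, while Wt1 fell (-0.50 ± 0.10). The Sertoli members that rose were Dmrt1, which spermatogonia also express, and Trf, transferrin (1.23 ± 0.07). Macrophage members fell in 9 of 20 cases with 3 rises (Lyz2 at 0.56 ± 0.18, Cd68 at 0.33 ± 0.09 and Itgam at 0.28 ± 0.09) and 8 that did not pass (median -0.28), most of them at low signals. The count of rises was 0 without the second 3 week array and 1 without either sorted array. Of 12 endothelial members 6 fell and the others did not pass (median -0.18).

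Fibroblast and mesenchyme genes had no common direction. Of 28 members 9 rose, 9 fell and 10 did not pass (median 0.00). Timp1, an inhibitor of matrix proteases, rose from 96.6 and 85.5 to 403 and 947 (2.77 ± 0.30), and Thbs1, a matrix protein, from 99.7 and 106 to 343 and 533 (2.06 ± 0.16). Both 3 week arrays were above both sorted arrays, but they differed from each other: Timp1 changed by 2.15 without the second 3 week array and by 3.38 without the first. Fn1, fibronectin, rose by 1.84 ± 0.11. Dcn, decorin, fell from 3734 and 4529.5 to 541 and 968 (-2.51 ± 0.21), and Sparc (-1.99 ± 0.22) and Pdgfra, a receptor of mesenchymal cells (-1.79 ± 0.08), fell too. Col3a1 measured 206 and 226 and 215 and 216 (-0.00 ± 0.07) with overlapping groups. All these genes had been over 2-fold brighter at 1 week than at 3 weeks, with means of 8069.6 for Timp1, 8203 for Dcn and 1666 for Col3a1.

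DNA replication genes were mostly higher at 3 weeks. Of 35 members 22 rose, 7 by at least 2-fold (13 with quantile scaling), 4 fell and 9 did not pass (median 0.53). Mcm2, of the helicase that opens replication origins, had 362 and 405 in the sorted cells and 1074 and 1028 at 3 weeks (1.46 ± 0.08), and Mcm4, Cdt1, which loads that helicase, and Mcm3 rose by 1.31 ± 0.10, 1.27 ± 0.07 and 1.16 ± 0.08. Pcna, the sliding clamp, stayed bright at 1831 and 1989.8 and 1952 and 2276 (0.14 ± 0.09), with overlapping groups. The members that fell were Rfc2 (-1.30 ± 0.08), Rpa1 (-0.55 ± 0.08), Gins1 (-0.49 ± 0.09) and Pola2 (-0.30 ± 0.07). Mitosis genes had no common direction: of 34 members 12 rose, 8 fell and 14 did not pass (median 0.10, and -0.06 with cyclic loess scaling), and without the second 3 week array 7 rose. Ccnb2, a mitotic cyclin, fell from 3104 and 3019 to 1187 and 1221 (-1.35 ± 0.06), and the kinase genes Plk1 (-1.11 ± 0.07) and Aurka (-1.21 ± 0.07) fell, while the checkpoint gene Mad2l1 rose by 1.19 ± 0.07 and the centromere histone gene Cenpa by 1.13 ± 0.08. Many mitosis genes are also transcribed in meiotic cells. Of 16 G1 cyclins and inhibitors 9 rose, 4 fell and 3 did not pass (median 0.27). The inhibitor Cdkn1a (p21) rose from 172 and 176 to 403 and 500.5 (1.37 ± 0.10), and the kinase gene Cdk4 by 0.92 ± 0.07. The falls were Cdkn2c, the inhibitor p18 (-1.98 ± 0.08), Cdk2 (-0.72 ± 0.08), Rbl1 (-0.45 ± 0.09) and Ccnd3, and Ccnd1 read -0.02 ± 0.09.

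Ribosomal protein genes rose together by modest amounts. Of 38 members 31 rose, 2 fell and 5 did not pass (median 0.50), and with cyclic loess scaling 21 rose and 6 fell (median 0.25). The 7 rises of at least 2-fold, among them Rpl5 from 1156 and 1236 to 2906 and 3077 (1.32 ± 0.09), all came under 2-fold with that scaling. The members that fell were Rpl10l and Rpl39l (-0.60 ± 0.13), copies used in male germ cells, and Rplp0 read 0.09 ± 0.08. Probes of ribosomal protein genes can also pick up processed copies. Oxidative phosphorylation genes showed no common direction, with 16 of 47 higher, 16 lower and 15 that did not pass (median -0.03, and 6 higher and 23 lower with cyclic loess scaling). Ndufv2 (-1.53 ± 0.11) and Ndufb5 (-1.47 ± 0.14), of complex I, fell, and Cox7b, of complex IV, rose by 0.99 ± 0.10. Of 18 members of glycolysis and glucose uptake 9 rose, 4 fell and 5 did not pass (median 0.33, and -0.00 with cyclic loess scaling). Pdk1, the kinase that holds pyruvate out of the mitochondrial cycle, went from 97.7 and 90.7 to 465 and 487 (2.34 ± 0.07). Besides Ldha, Tpi1 (-2.03 ± 0.11), Pfkp (-1.60 ± 0.09) and Aldoa (-0.36 ± 0.07) fell. Cholesterol synthesis genes rose in 15 of 25 cases, 4 by at least 2-fold (8 with quantile scaling), with 5 falls and 5 that did not pass (median 0.39). Srebf2, the transcription factor of the pathway, went from 387 and 394 to 1194 and 1229 (1.63 ± 0.06) and its regulator Insig1 from 515 and 624 to 1916 and 1844 (1.73 ± 0.09). The enzyme gene Hmgcs1 rose by 1.25 ± 0.08. The falls were Fdft1 (-0.91 ± 0.08), Ebp (-0.69 ± 0.07), Sc5d (-0.30 ± 0.08), Tm7sf2 (-0.26 ± 0.08) and Sqle (-0.24 ± 0.06).

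Genes of amino acid supply and the ATF4 response rose as a group. ATF4 is the transcription factor that cells use to restore amino acid uptake and synthesis. Of 22 members 17 rose, 8 by at least 2-fold (5 with cyclic loess scaling), 1 fell and 4 did not pass (median 0.79). Atf4 itself had 101 and 111 in the sorted cells and 192 and 217 at 3 weeks (0.95 ± 0.09). The amino acid transporter gene Slc38a1 had 68.9 and 69.2 and 505 and 469 (2.82 ± 0.07, and 1.41 with its clusters averaged), and Slc38a2 rose by 1.69 ± 0.07 (0.88 averaged). Every 3 week array was above every sorted array in these genes. In serine and one-carbon metabolism, Shmt2 went from 155 and 198 to 812 and 863 (2.26 ± 0.13) and Psat1 from 152 and 191 to 445 and 542 (1.53 ± 0.12). Chac1, a glutathione-degrading enzyme and ATF4 target, had 134 and 134 and 338 and 409 (1.47 ± 0.13), above its means of 142 at 2 weeks and 156 in GS cells. The member that fell was Atf3 (-1.39 ± 0.13), also a stress-induced immediate early gene. Genes of the unfolded protein response, which answers misfolded protein in the endoplasmic reticulum, went the other way, with 14 of 19 lower, none higher and 5 that did not pass (median -0.57). The chaperone gene Hspa5 fell from 1733 and 1819 to 968 and 1063 (-0.81 ± 0.07), and Herpud1 (-1.77 ± 0.09) and Sdf2l1 (-2.18 ± 0.12) fell further.

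The ATF4 binding letters TGATGNAA (the amino acid response element, here called CARE, searched on both strands) were present in the 250 bases before the start of 5 of 17 members with a promoter sequence (29.4%), against 3.18% of 14938 measured genes with one. Of those 5, Asns, Chac1, Slc7a11, Atf3 and Gars, 3 rose, and of the 12 without it 11 rose. The Chac1 promoter is shown because it carries the letters and the gene passed (chr2:119350992-119351241, plus strand, GRCm38.p6, RefSeq, a C57BL/6J sequence while the cells were DBA/2), with the match, read from the other strand, in capitals 185 bases before the start.
Chac1: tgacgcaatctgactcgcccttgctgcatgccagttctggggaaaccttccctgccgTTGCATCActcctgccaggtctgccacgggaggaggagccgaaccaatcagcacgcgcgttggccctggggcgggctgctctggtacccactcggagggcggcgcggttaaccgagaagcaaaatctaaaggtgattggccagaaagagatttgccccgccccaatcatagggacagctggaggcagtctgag
Among the genes that rose by at least 2-fold the share with these letters was 2.71%. The share in the list follows from how the list was drawn up and does not depend on these samples.

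Further stress lists were mixed. Of 21 p53 targets 9 rose, 2 fell and 10 did not pass (median 0.17), with 4 rises of at least 2-fold that were 1 with cyclic loess scaling. Besides Cdkn1a, Trp53inp1, Tnfrsf10b and Ccng1 rose by 1.13 ± 0.07, 1.08 ± 0.07 and 1.06 ± 0.18, Btg2 (-0.35 ± 0.08) and Sesn1 (-0.28 ± 0.09) fell, and Mdm2 read -0.15 ± 0.10 without passing. Of 20 NRF2 and redox members 8 rose, 5 fell and 7 did not pass (median 0.07, and -0.02 with cyclic loess scaling). Hmox1, heme oxygenase, rose from 214 and 245 to 617 and 729.5 (1.55 ± 0.10), Gclc, which makes glutathione, by 1.58 ± 0.11 and Prdx1 by 1.59 ± 0.15. The falls were in the glutathione transferase genes Gstm1 (-4.29 ± 0.12), Gstm2 (-2.34 ± 0.11), Gsta4 (-1.51 ± 0.06) and Gstp1 (-0.41 ± 0.08) and in the malic enzyme gene Me1 (-2.40 ± 0.07). Gstm1 had 2776 and 2737 in the sorted cells and 163 and 122 at 3 weeks. Gstm genes are close relatives that probes may not separate.

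Most antigen processing genes rose, by differing amounts. Cells cut proteins with the proteasome, trim the peptides and load them onto class I molecules, and interferon is known to raise this pathway. Of 16 members 11 rose, 5 by at least 2-fold, 1 fell and 4 did not pass (median 0.48). The proteasome activator genes Psme1 and Psme2 had 281 and 292 and 206 and 234 in the sorted cells and 775 and 778 and 926 and 916 at 3 weeks (1.44 ± 0.07 and 2.07 ± 0.08). Psmb10, an immunoproteasome subunit, went from 167 and 198 to 676 and 760 (1.98 ± 0.13). Their groups were far apart. The other immunoproteasome subunits in the list, Psmb9 and Psmb8, rose by 0.45 ± 0.11 and 0.24 ± 0.07, calls that ended in 2 and 4 of 13 alternative settings. The trimming enzyme Erap1 rose by 1.58 ± 0.14, the loading chaperone tapasin (Tapbp) by 0.98 ± 0.07 and the transcription factor Irf1 from 131 and 144 to 454 and 542 (1.85 ± 0.09, and 1.12 with its clusters averaged). The class I heavy chain H2-K1 read 313 and 313 and 366 and 347 (0.19 ± 0.07, adjusted p = 0.056) and the peptide transporter Tap1 0.12 ± 0.09, neither passing. B2m, the light chain of class I, was the member that fell, from 668 and 846 to 489 and 649 (-0.42 ± 0.15, adjusted p = 0.041), a call that ended in 6 of 13 alternative settings. B2m had a mean of 4874 at 1 week, when the fibroblast sum was 100782. H2 genes are close relatives that probes may not separate.

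Most interferon-stimulated genes did not pass. Of 27 members 10 rose, 4 by at least 2-fold, 2 fell and 15 did not pass (median 0.17). Of all genes 30.1% were higher, 3.44% by at least 2-fold, and 23.9% lower, with a median of 0.10. Gbp2 and Gbp3, interferon-induced GTPases, had 81.7 and 77.8 and 85.9 and 86.3 in the sorted cells, close to the lower quartile, and 392 and 432 and 314 and 373 at 3 weeks (2.37 ± 0.09 and 1.99 ± 0.10). Their means at 2 weeks were 330.3 and 278, and in GS cells 220.5 and 171. Oasl2 rose by 1.01 ± 0.10 and Irgm1 by 0.91 ± 0.13. Of the antiviral genes that type I interferon typically raises, several were dim in both groups and did not pass: Ifit1 read 76.7 and 81.1 and 83.3 and 64.9 (-0.10 ± 0.11), Isg15 63.8 and 62.4 and 68.7 and 66.8 (0.10 ± 0.08), Mx1 0.02 ± 0.07 and Rsad2 0.13 ± 0.07. Others passed and were higher: Ifih1 went from 92.9 and 93.5 to 139 and 145 (0.61 ± 0.07), Ifit3 from 84.7 and 88.5 to 99.2 and 109.5 (0.27 ± 0.08) and Mx2 from 46.1 and 46.5 to 56.1 and 51.1 (0.21 ± 0.08, adjusted p = 0.043), the last 2 of these calls ending in 4 and 7 of 13 alternative settings. Ifitm3 fell from 736 and 939 to 253 and 409.6 (-1.37 ± 0.20), and the other fall, of Ddx58 (-0.21 ± 0.08), ended in 8 of 13 alternative settings. Ifitm2 read -0.01 ± 0.14 with overlapping groups.

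Promoters of these genes were searched for the core letters of the interferon-stimulated response element (ISRE, GAAA and again GAAA after any 2 bases) and of the gamma-activated site (GAS, TTCNNNGAA), on both strands of the 250 bases before the start. The ISRE core was present in 12 of 22 interferon-stimulated members with a promoter (54.5%), against 3.33% of 14938 measured genes. Of the 12 members with it 5 rose, and of the 10 without it 3 rose. The GAS letters were in 4 of 13 antigen processing members (30.8%), against 7.66% of all, and all 4 of these, H2-M3, Psmb8, Irf1 and Irf2, rose, as did 6 of the 9 without. In the interferon-stimulated list the GAS letters were in 3 of 22 members (13.6%), of which 0 rose, against 8 of the 19 without. The ISRE core was in 2 of 13 antigen processing members (15.4%), of which 1 rose, against 9 of the 11 without. Among all genes that rose by at least 2-fold the shares were 3.48% for the ISRE core and 6.96% for the GAS letters. The shares in the lists follow from how the lists were drawn up and do not depend on these samples. Promoters are printed for Gbp2 and Gbp3, which rose most, Irf1, the transcription factor that rose, Ifit1, which has the same element but did not pass, and Cd274, whose product PD-L1 the series is named after. All are on the plus strand in GRCm38.p6 (RefSeq): Gbp2 at chr3:142620413-142620662, Gbp3 at chr3:142559794-142560043, Irf1 at chr11:53769764-53770013, Ifit1 at chr19:34640639-34640888 and Cd274 at chr19:29367188-29367437. Capitals mark the ISRE core, read from the other strand, or in Irf1 the GAS letters.
Gbp2: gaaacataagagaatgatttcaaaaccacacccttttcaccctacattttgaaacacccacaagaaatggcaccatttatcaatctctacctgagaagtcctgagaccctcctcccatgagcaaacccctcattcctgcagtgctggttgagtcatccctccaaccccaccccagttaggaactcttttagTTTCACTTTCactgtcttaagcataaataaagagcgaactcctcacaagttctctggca
Gbp3: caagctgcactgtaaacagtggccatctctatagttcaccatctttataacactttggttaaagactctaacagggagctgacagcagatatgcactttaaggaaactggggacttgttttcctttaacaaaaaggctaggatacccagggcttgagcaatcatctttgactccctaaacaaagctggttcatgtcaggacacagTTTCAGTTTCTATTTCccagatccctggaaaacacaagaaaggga
Irf1: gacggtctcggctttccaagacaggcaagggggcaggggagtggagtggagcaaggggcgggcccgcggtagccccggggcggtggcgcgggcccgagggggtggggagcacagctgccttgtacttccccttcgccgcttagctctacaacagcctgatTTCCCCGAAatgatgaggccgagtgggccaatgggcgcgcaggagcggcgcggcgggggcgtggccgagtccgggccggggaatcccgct
Ifit1: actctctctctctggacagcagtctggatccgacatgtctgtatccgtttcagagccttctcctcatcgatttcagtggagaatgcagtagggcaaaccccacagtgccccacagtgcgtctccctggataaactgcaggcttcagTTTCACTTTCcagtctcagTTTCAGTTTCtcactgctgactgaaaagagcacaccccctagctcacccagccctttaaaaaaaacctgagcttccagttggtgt
Cd274: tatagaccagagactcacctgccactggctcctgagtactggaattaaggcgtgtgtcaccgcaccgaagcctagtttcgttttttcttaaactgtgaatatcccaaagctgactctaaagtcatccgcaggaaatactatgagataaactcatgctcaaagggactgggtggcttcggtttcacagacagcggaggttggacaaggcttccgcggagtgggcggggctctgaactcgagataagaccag
The nearest match ended 49 bases before the start in Gbp2, 29 in Gbp3, where 2 matches overlap, 75 in Ifit1, which has 2, and 81 in Irf1. None of the 3 searched motifs was in the Cd274 window. A match is a stretch of letters and not a measured site.

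Immune checkpoint genes had no common direction. Of 20 members 4 rose, 6 fell and 10 did not pass (median 0.01, and -0.10 with cyclic loess scaling). Cd274, which encodes the checkpoint ligand PD-L1, had 132 and 124 in the sorted cells and 268 and 229.7 at 3 weeks (0.96 ± 0.09). Both 3 week arrays were above both sorted arrays. Cd276 (B7-H3) rose from 425 and 414 to 749.7 and 657 (0.74 ± 0.08) and Lgals1, galectin 1, by 0.61 ± 0.11, and Pdcd1lg2 changed by 0.21 ± 0.06, a call that ended in 4 of 13 alternative settings. Entpd1, an enzyme that degrades extracellular ATP, fell from 477 and 498 to 55.1 and 51.3 (-3.20 ± 0.11), and Cd200 fell as well (-1.34 ± 0.11).

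**Figure D5:**
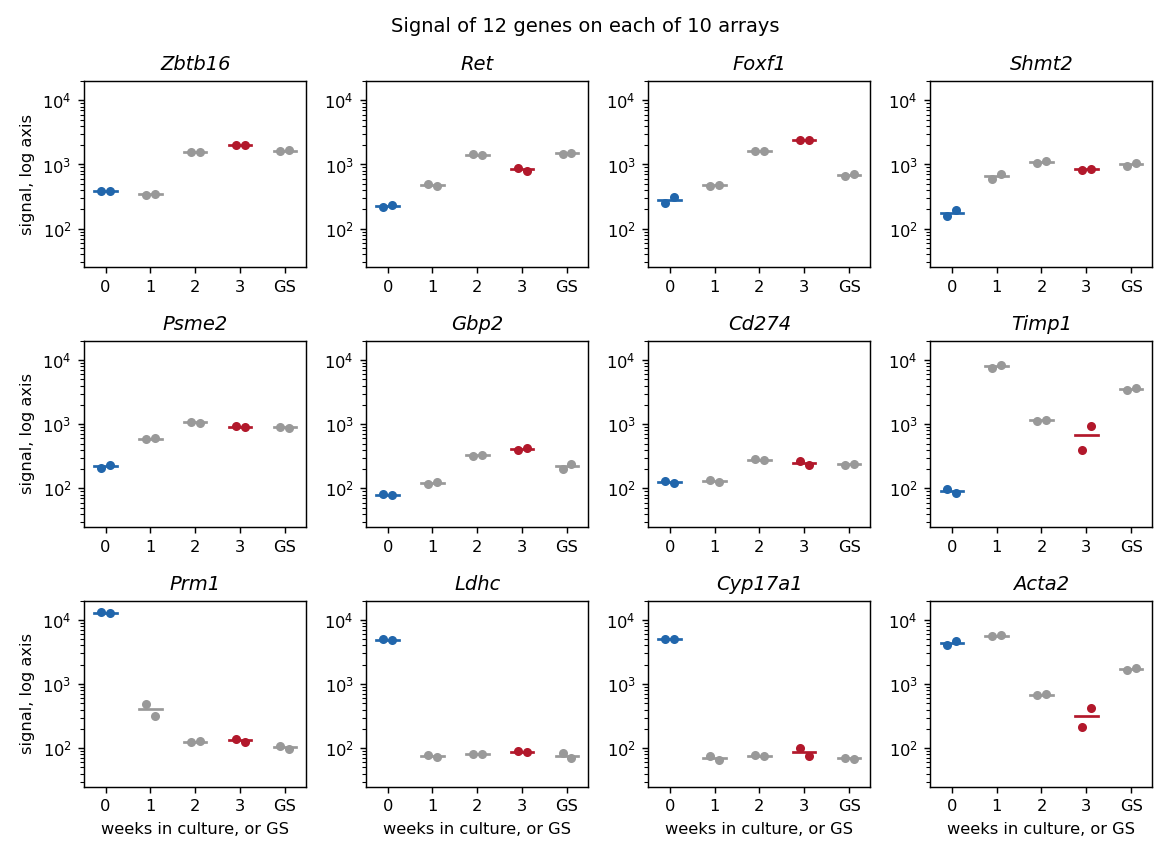
Signal of 12 genes on each of the 10 arrays (log axis; dots are arrays, bars group means, x axis weeks in culture or established GS cells), with sorted cells in blue, 3 week cultures in red and the other groups in grey. Zbtb16, Ret, Foxf1, Shmt2, Psme2, Gbp2, Cd274 and Timp1 are higher at 3 weeks than in sorted cells, Prm1, Ldhc, Cyp17a1 and Acta2 lower, and the 3 week dots lie furthest apart in Timp1 and Acta2.

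Genes of the early embryo and germ line changed in part. Of 22 pluripotency members 15 rose, 3 by at least 2-fold (Sall4 among them), 4 fell and 3 did not pass (median 0.42). Nr5a2, a nuclear receptor, had 88.6 and 91.6 and 308 and 374 (1.91 ± 0.10), and Pou5f1 (OCT4) 60.6 and 61.1 and 154 and 131 (1.22 ± 0.13). Nanog and Sox2 passed at 0.40 ± 0.11 and 0.45 ± 0.14 but stayed dim, at 104 and 93.0 and 70.0 and 74.1 at 3 weeks. The falls were Nr0b1 (-1.85 ± 0.08), which Sertoli and Leydig cells also express, Klf4 (-0.88 ± 0.09), Fbxo15 (-0.48 ± 0.08) and Klf2 (-0.35 ± 0.08). Of 19 imprinted genes 10 rose, 5 fell and 4 did not pass (median 0.32). H19, a maternally expressed noncoding RNA, rose from 102 and 136 to 759.8 and 773 (2.70 ± 0.12), after a mean of 4768 at 1 week. Igf2r and Phlda2 rose by 1.20 ± 0.09 and 0.85 ± 0.07, and Sgce (-0.87 ± 0.08), Grb10 (-0.69 ± 0.09), Gnas (-0.49 ± 0.08), Impact (-0.41 ± 0.07) and Peg10 (-0.29 ± 0.07) fell. Among 14 genes of DNA methylation 7 rose, 2 fell and 5 did not pass (median 0.26), none by 2-fold. Dnmt1, which copies methylation after replication, rose from 398 and 438 to 742 and 827 (0.91 ± 0.08) and the de novo enzyme gene Dnmt3b by 0.86 ± 0.07, and Mbd3 (-0.78 ± 0.07) and Tet2 (-0.33 ± 0.12) fell.

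Genes for the surroundings of the stem cell fell in part. Of 21 laminin, collagen IV and basement membrane members 11 fell, 2 rose and 8 did not pass (median -0.23). Lama2, a laminin chain, went from 367 and 598 to 88.5 and 73.0 (-2.54 ± 0.20), and Itga1, a collagen-binding integrin, fell too (-2.19 ± 0.09). Lamc1 (0.41 ± 0.12) and Itga5 (0.36 ± 0.13) rose, and Itgb1 read 0.14 ± 0.12 with overlapping groups. In retinoic acid handling 4 of 19 members rose, 5 fell and 10 did not pass (median 0.05, and -0.03 with cyclic loess scaling). The falls were in the synthesising genes Aldh1a1 (-3.11 ± 0.11) and Aldh1a2 (-1.69 ± 0.09), the degrading enzyme gene Cyp26b1 (-2.31 ± 0.15), Rdh11 (-3.58 ± 0.06) and the retinol carrier gene Rbp4 (-0.36 ± 0.09). Aldh1a1 had 736 and 862 in the sorted cells and 89.7 and 94.1 at 3 weeks, with no overlap. The binding protein genes Crabp1 (1.25 ± 0.10) and Crabp2 (0.48 ± 0.16) and the receptor genes Rarg (0.89 ± 0.10) and Rara (0.36 ± 0.07) rose.

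The 12 largest rises ran from 3.07 to 2.43. Foxf1, a forkhead factor best known from mesenchyme, had 255 and 314 in the sorted cells and 2369 and 2382 at 3 weeks (3.07 ± 0.10), with a mean of 1615 at 2 weeks and 684 in GS cells, a change from 3 weeks of -1.80 ± 0.10. Fscn1, an actin-bundling protein, had 241 and 236 and 1792 and 1929 (2.96 ± 0.07), and its 3 week mean did not differ past the threshold from that at 2 weeks or in GS cells. Large2, a glycosyltransferase, and Rragd, a GTPase of amino acid sensing by mTORC1, rose by 2.71 ± 0.07 and 2.62 ± 0.11, and Ak4, a mitochondrial adenylate kinase, by 2.44 ± 0.14 (1.49 with its clusters averaged). Saa3, an acute phase protein, and Spp1, osteopontin, had 363 and 659 and 498 and 759 at 3 weeks against 71.0 and 74.9 and 109 and 118 in the sorted cells (2.75 ± 0.21 and 2.43 ± 0.16). Like Timp1 and H19, they had been far brighter at 1 week, at 4866 and 7166, and in each of these genes but H19 the second 3 week array was well above the first. LOC280487 rose by 2.44 ± 0.45, and Slc38a1, Mageb4, Timp1 and H19 were the others. The 12 largest falls ran from -6.63 to -5.91 and ended at mean signals of 36.7 to 132. Besides Prm1, Crisp2, Oaz3, Gk2, Smcp and Fabp9 they were Spata4, Fbp1, Adam5, Ms4a20, Pabpc2 and Plaat5. Fbp1, the gluconeogenic fructose bisphosphatase, had 4777 and 4499.6 in the sorted cells and 58.2 and 52.4 at 3 weeks (-6.39 ± 0.08), a level close to its mean of 47.9 at 1 week. With signals under 64 set to 64, the falls of Ms4a20 and Spata4 were -5.35 and -5.80 in place of -6.16 and -6.43.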

How the data were processed

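RNA of 10 samples was hybridised to 1-colour Affymetrix Mouse Gene 1.0 ST arrays, biotin-labelled with the WT Terminal Labeling kit per the labels' protocols. The authors deposited 1 linear intensity per array for each of 28856 transcript clusters. How probes were background-corrected, summarized and normalized is not given in the sources used here. A mean signal at 0 and 3 weeks in the authors' deposited table equals the geometric mean of the arrays within 8.95e-07, and the ratio (fold) in that deposited table was not used. The clusters and gene symbols are of annotation na32 on mm9, per the file headers. That table holds no positions, so chromosomes were taken from RefSeq promoters (GRCm38.p6). Whether a cluster lies at the gene it is named for or at a processed copy was not checked.

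A floor of 1 was set, and log2 was taken of the deposited signals. Clusters with 1 symbol (22439; 2815 had several and 3602 none) were kept, 2024 symbols were updated and 736 kept as given, and the brightest cluster was used for 1333 genes with several. Group means were fitted over all 10 arrays in 5 groups by lmFit and eBayes of limma 3.58.1 (R 4.3.3), leaving 5 residual degrees of freedom beside 4.39 of the prior, and p-values adjusted by Benjamini-Hochberg over 20174 genes. The median SD within the 2 groups was 0.08 and the median SE 0.09. The number of arrays limits the precision. In a test on simulated data for this comparison, 18% of genes changed by 1.25-fold were found, 76% at 1.5-fold, 94% at 2-fold and 100% at 4-fold, with 9 false calls among 19974 genes. The simulation left 19974 of 20174 genes unchanged, while 53.9% of genes passed in the data. The adjustment was thus stricter in the simulation, and these shares and false calls may not carry over.

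Alternatives were quantile, cyclic loess and median scaling, leaving out dim genes (10087 kept), a floor of 64, averaging clusters, fitting only the 4 arrays, a trended robust eBayes, a replicate block and leaving out each array. The gene lists and members were chosen with earlier results of these data known. Named genes are a fixed panel, the 12 largest rises and falls without overlap, and per list up to 6 members that passed with the largest changes and 2 brightest that did not (294 genes). The text names 68 others after their values were seen, mostly members of a count of 5 or fewer. Spry1, Spry2, Spry4, Dusp4, Dusp5, Fgfr1, Fgfr2, Fgfr3, Aldoc and Tspan8 are named besides these and are not in the checks of named genes. Some genes of the lists are counted but not reported by name here.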

Additional observations from a re-analysis of the deposited data

How the results depend on the processing

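Leaving out dim genes, which tests 10087 of 20174 genes, gave 3584 higher in place of 6065 and 1342 lower by at least 2-fold in place of 2113. The other counts over all genes, and the other alternatives of these 2, stayed within 1.5 times of the main count. Leaving out 1 array in turn gave 4353 to 5588 higher and 4227 to 4472 lower genes. Of 362 named genes, those that missed the threshold in the main analysis and passed in the other direction with cyclic loess scaling were Cks2 (-0.23), Pcna (-0.20), Gpi1 (-0.22), Atp5b (-0.37), Cox5b (-0.20), Rplp0 (-0.37), Hyou1 (-0.20) and H1f1 (-0.28), and Gapdh went from passing to -0.01. With that scaling 4555 genes were higher and 5820 lower. The cause was not tested. Some counts of single lists moved by more, and several of these are given with the lists. Replicate numbers occur in every group. Deviations of same-numbered arrays correlated at 0.310 between the sorted and 3 week groups, at 0.316 to 0.584 in the other 5 pairs among the sorted, 1 week, 3 week and GS groups, and at -0.024 to -0.067 between the 2 week group and the others. Not every pair of groups was thus over 0.1, and the labels name nothing that the numbers share, so the numbers were not taken to pair the samples. With the replicate number as a block, 7037 genes were higher and 5080 lower. Without a detection call, signals near the lower quartile limit the size of falls.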
